A study of Mus musculus with 6 samples.

Results

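A set of 10 genes that bind or move zinc, break down heme or handle iron was followed in the lungs of endotoxaemic mice. They were the metallothioneins Mt1 and Mt2, the zinc transporters Slc39a14 and Slc30a1, the heme-degrading enzymes Hmox1 and Blvrb, and Slc40a1, Slc11a1, Tfrc and Fth1, which export, move, import and store iron. They were chosen by name, as 10 of the 22907 genes matched to a probe and of the 16366 genes tested. Each of the 10 was well above background on all 6 arrays, none was saturated on any array, and the brightest probe stood for a gene. Every mouse was a male C57BL6 animal of 10 weeks that was starved for 16 h and then given LPS (20 mg/kg) into the peritoneum. The saline group (n = 3) received saline and the rhTM group (n = 3) recombinant human thrombomodulin, a soluble form of an endothelial anticoagulant receptor, in both cases at 3 and 24 h after LPS. Lung RNA taken at 30 h was hybridised to 1-colour Agilent arrays, 1 array per mouse. All 6 mice had received LPS, so the values compare treatments within endotoxaemia and not with healthy lung.

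Metallothioneins are small cysteine-rich proteins that hold zinc and copper, and their genes are switched on by zinc through the metal-responsive factor MTF1 and by glucocorticoids and cytokines during the acute-phase response. Heme oxygenase-1, encoded by Hmox1, opens the heme ring and releases iron, carbon monoxide and biliverdin, which biliverdin reductases turn into bilirubin. In inflammation, macrophages and other cells hold back zinc and iron from the circulation, and the transporters and ferritin set where the metals go. Whole lung contains many cell types, so fewer cells of a type and less RNA per cell cannot be told apart.

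Signals are given as multiples of the array's 75th percentile of probe intensity, and differences as log2 of rhTM over saline. In the authors' value table the arrays of saline replicate 1 and rhTM replicate 2 were exchanged relative to the scanner output, and the sources used here do not settle which assignment is right. Values follow the scanner output, with those of the table given where they are named as such. Across all 16366 genes, 1.87% (306 genes) had an unadjusted limma p below the 0.05 threshold. By the table these were 2279 of 16316 genes (14%), and 0% passed after adjustment by the scanner output or by the table. The array of saline replicate 1 had a spike-in slope of 0.826, outside the scanner software's accepted range, against 1.07 to 1.09 on the other 5 arrays. The array of rhTM replicate 1 had the lowest median correlation with the others (0.981, against 0.986 to 0.989). Saline replicate 1 and rhTM replicate 3 shared slide 2, and the other 4 arrays shared slide 1. Under the table's assignment slide 2 would hold rhTM arrays alone.

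The letters to which MTF1 is known to bind, the metal response element, were looked for upstream of the genes as background to their readings. The core was searched as TGCACNC and TGCGCNC on both strands of the 250 bases before each start site in a RefSeq promoter table (build GRCm38.p6). The table held 7 of the 10 genes, and Slc39a14, Hmox1 and Slc40a1 were not among them. The windows of Mt1 (chr8:94178839-94179088), Mt2 (chr8:94172368-94172617) and Slc30a1 (chr1:191906531-191906780) are shown because they precede the genes best known as MTF1 targets. All are written 5′ to 3′ on the + strand, with each core match in capitals.
Mt1: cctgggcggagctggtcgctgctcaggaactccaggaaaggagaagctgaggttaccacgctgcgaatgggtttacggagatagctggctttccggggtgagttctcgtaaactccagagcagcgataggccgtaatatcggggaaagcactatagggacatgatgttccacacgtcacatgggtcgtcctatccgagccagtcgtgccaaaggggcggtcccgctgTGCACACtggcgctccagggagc
Mt2: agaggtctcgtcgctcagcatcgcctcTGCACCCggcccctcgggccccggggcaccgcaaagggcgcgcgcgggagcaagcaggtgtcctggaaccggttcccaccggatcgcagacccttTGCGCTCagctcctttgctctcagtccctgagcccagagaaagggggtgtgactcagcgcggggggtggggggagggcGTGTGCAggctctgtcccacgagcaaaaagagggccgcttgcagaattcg
Slc30a1: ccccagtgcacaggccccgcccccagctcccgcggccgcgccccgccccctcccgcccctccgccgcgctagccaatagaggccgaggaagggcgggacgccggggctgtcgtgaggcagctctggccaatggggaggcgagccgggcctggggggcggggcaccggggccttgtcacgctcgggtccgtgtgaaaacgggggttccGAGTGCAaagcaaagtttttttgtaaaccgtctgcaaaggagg
Mt2 held 3 matches, beginning at positions -223, -128 and -50 from the start site, the last on the reverse strand. Mt1 held 1, at -23, and Slc30a1 held 1 on the reverse strand, at -43. Letters after the listed start site or farther upstream were not searched. The counts therefore depend on the start site listed and need not cover all elements of a promoter. One of the windows of Tfrc held 2 overlapping matches, and those of Blvrb, Slc11a1 and Fth1 held none. Of 32851 windows of this length in the table, 21.4% held at least 1 match and 1.26% held at least 3. A match is a run of letters and not a measured binding site.

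The metallothioneins had a higher mean in the rhTM group, by 0.29 (Mt1) and 0.37 (Mt2) on the log2 scale, but this difference lay within the spread between mice. Without rhTM replicate 1 the differences were 0.10 and 0.22, and without rhTM replicate 2 they were 0.51 and 0.57. Mt1 read 209.8, 200.9 and 205.7 in saline replicates 1 to 3 and 325, 185.1 and 262.1 in rhTM replicates 1 to 3. The saline mice were almost level, whereas 2 rhTM mice lay above and 1 lay below all of them. The group means were 205.5 ± 4.47 and 257.4 ± 70.0 (SD, n = 3 each), and the 95% interval of the log2 difference ran from -0.21 to 0.79 (SE 0.21, adjusted p = 0.9999 by limma, exact two-sided permutation p = 0.4). Mt2, the neighbour of Mt1 on chromosome 8, read 182.8, 209.2 and 210.7 in the saline mice and 314.3, 193.4 and 283.7 in the rhTM mice. The same 2 rhTM mice were above every saline mouse, and rhTM replicate 2 lay inside the saline range. The means were 200.9 ± 15.7 and 263.8 ± 62.9, with a log2 interval from -0.11 to 0.84 (SE 0.20, adjusted p = 0.9999 by limma, exact permutation p = 0.3). With 3 mice against 3, the permutation test cannot give a p below 0.10.

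By the table's assignment, the Mt1 groups did not overlap (log2 difference 0.41, adjusted p = 0.357 by limma), while those of Mt2 did (0.31, adjusted p = 0.512 by limma). A second Mt1 probe, designed to a predicted transcript, read 1.05, 0.946 and 1.06 in the saline mice and 4.46, 1.06 and 1.21 in the rhTM mice. Its log2 difference of 0.81 was set mainly by rhTM replicate 1, and the mean over both Mt1 probes gave 0.55. Mt3, the metallothionein best known from brain, lies in the same cluster and differed by 0.0045 (-0.12 by the table).

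**Figure D1:**
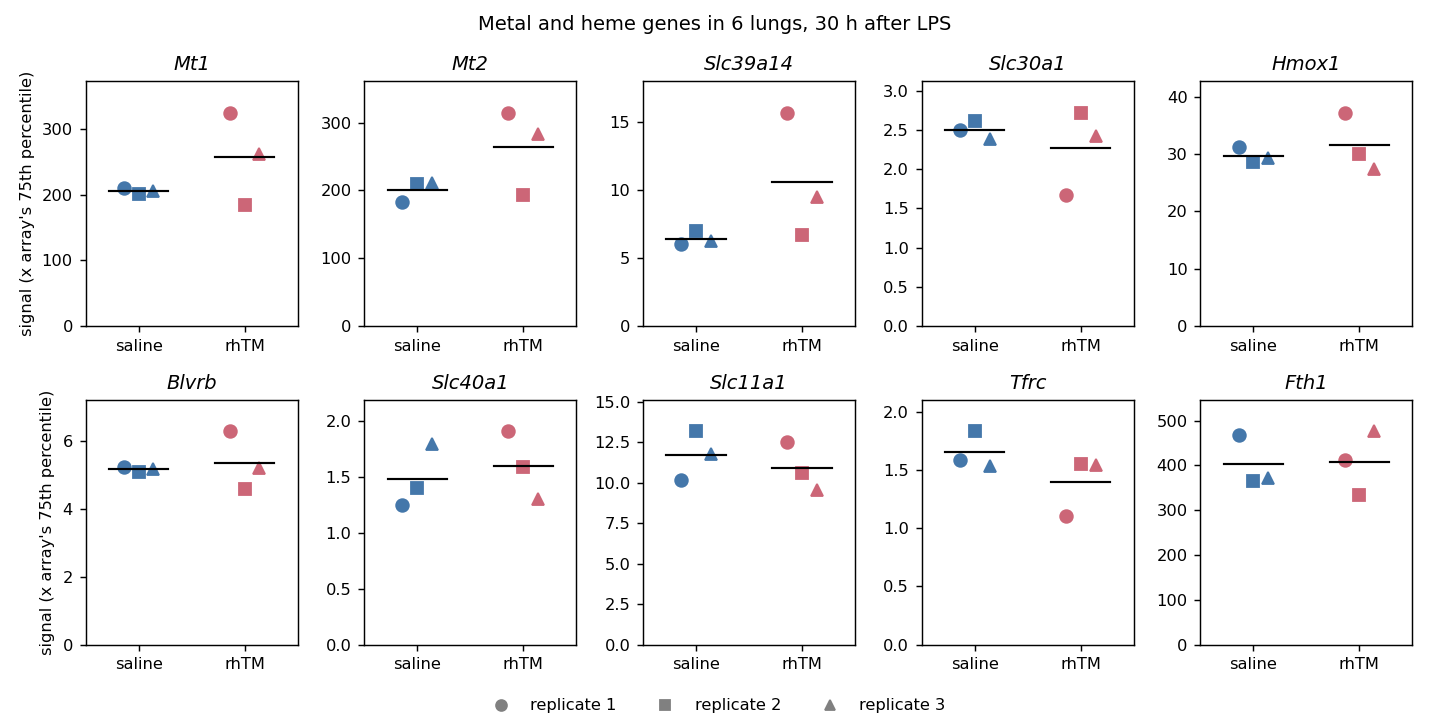
Signal of the 10 genes in each of 6 lungs, as a multiple of the array's 75th percentile on axes that start at 0; points are mice, the marker gives the replicate number and lines are group means. For Mt1, Mt2 and Slc39a14, rhTM replicates 1 and 3 lie above all 3 saline mice and rhTM replicate 2 lies within or below them.

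Slc39a14, encoding the importer ZIP14 that brings zinc and non-transferrin-bound iron into cells in inflammation, showed the widest difference of the 10. Its signal was 6.03, 6.96 and 6.23 in the saline mice and 15.7, 6.69 and 9.51 in the rhTM mice. As with the metallothioneins, rhTM replicates 1 and 3 were above all saline mice and rhTM replicate 2 lay among them. The means of 6.41 ± 0.487 and 10.6 ± 4.59 differed by 0.64 on the log2 scale, with an interval from -0.06 to 1.35 (SE 0.30, adjusted p = 0.9999 by limma, exact permutation p = 0.2). Without rhTM replicate 1 the difference was 0.32, without rhTM replicate 2 it was 0.93, and by the table it was 0.54. The difference was 0.64 on slide 1 (2 mice against 2) and 0.66 on slide 2 (1 against 1). The slide 1 value averaged 2 unlike mice, as rhTM replicates 1 and 2 lay 1.29 and 0.06 above the mean of all saline mice. For Mt1 the slides gave 0.27 and 0.32, and for Mt2 0.23 and 0.63. Over the 6 mice the SD of Slc39a14 on the log2 scale exceeded that of 92.4% of all genes.

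Slc30a1, encoding the exporter ZnT1 that lowers cytosolic zinc, leaned the other way. It read 2.50, 2.61 and 2.39 in the saline mice against 1.67, 2.71 and 2.43 in the rhTM mice. Only rhTM replicate 1, the mouse highest in Mt1 and Slc39a14, was below the saline range, and rhTM replicate 2 was the highest of the 6. The log2 difference was -0.17 (interval -0.63 to 0.30, adjusted p = 0.9999 by limma), and without rhTM replicate 1 it turned to 0.04. By the table it was -0.25.

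The heme-degrading enzymes hardly differed in mean. Hmox1 read 31.2, 28.5 and 29.2 in the saline mice and 37.1, 30.05 and 27.3 in the rhTM mice. One rhTM mouse was above and one below every saline mouse, so the log2 difference of 0.08 had an interval from -0.27 to 0.43 (exact permutation p = 0.8). Its sign differed between the slides, at 0.21 on slide 1 and -0.19 on slide 2, and by the table the difference was 0.11. Blvrb, encoding biliverdin reductase B, an enzyme abundant in red cells, read 5.25, 5.08 and 5.18 in the saline mice and 6.29, 4.602 and 5.23 in the rhTM mice. Its saline values were nearly equal and its rhTM values fell on both sides of them. The log2 difference was 0.04 (interval -0.30 to 0.39), and 0.17 in the authors' table, without overlap of the groups (adjusted p = 0.525 by limma). Both enzymes had adjusted p = 0.9999 by the scanner output with limma.

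Among the iron genes, Slc40a1 encodes ferroportin, the only known cellular iron exporter. Its signal was 1.25, 1.40 and 1.79 in the saline mice and 1.90, 1.59 and 1.30 in the rhTM mice. The groups lay over each other, with a log2 difference of 0.11 (interval -0.36 to 0.58) that was -0.12 by the table. Slc11a1, encoding the phagosomal metal transporter NRAMP1 of macrophages and neutrophils, read 10.2, 13.2 and 11.8 in the saline mice against 12.6, 10.6 and 9.56 in the rhTM mice. It is a gene for which C57BL/6 mice carry a loss-of-function allele, which is background to its role in this strain. The log2 difference was -0.10 (interval -0.48 to 0.28), with overlapping groups, and -0.15 by the table. It ranged from -0.21 (without rhTM replicate 1) to -0.012 (without rhTM replicate 3) as single arrays were left out.

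Tfrc, the transferrin receptor that imports iron, read 1.59, 1.83 and 1.54 in the saline mice and 1.10, 1.55 and 1.55 in the rhTM mice. rhTM replicate 1 was the lowest of the 6 and the other rhTM mice lay within the saline range. The log2 difference of -0.25 (interval -0.66 to 0.16, exact permutation p = 0.3) was -0.09 without rhTM replicate 1 and -0.23 by the table. A dimmer Tfrc probe differed by 0.14 in the opposite direction, and the mean over both probes by -0.06. Fth1, the heavy chain of the iron store ferritin, gave 467.3, 366.1 and 372.4 in the saline mice and 411.6, 334 and 475.6 in the rhTM mice. The highest and lowest Fth1 signals were both in rhTM mice, and the log2 difference was 0.01 (interval -0.41 to 0.43), which turned to between -0.032 and -0.011 under other background corrections and scalings.

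Of the 10 genes, Fth1 had the estimate that differed most between the assignments. By the table, its groups separated, with a log2 difference of 0.34 (SE 0.11; interval 0.08 to 0.59; adjusted p = 0.316 by limma; exact permutation p = 0.1, the smallest possible). Saline replicate 1 and rhTM replicate 3, which shared slide 2, had the 2 highest Fth1 signals, and the part of the slide in this was not tested. With slide as a block, which leaves the comparison of rhTM replicate 1 with the 3 saline arrays of slide 1, the table gave 0.20 for Fth1, 0.72 for Mt1, 1.24 for Slc39a14 and -0.62 for Slc30a1 (lowest adjusted p of the 10 by limma 0.05545).

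**Figure D2:**
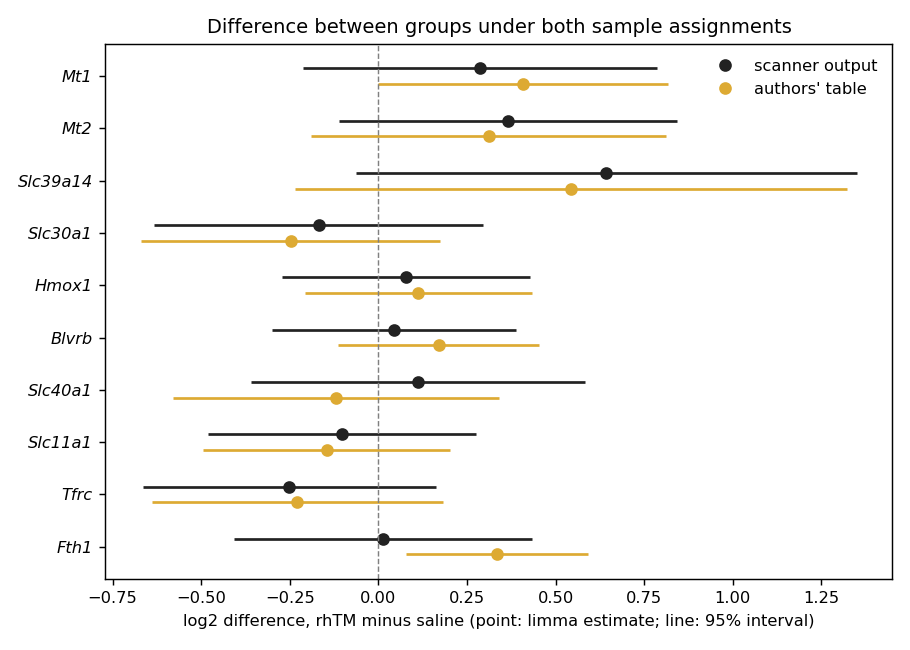
Log2 difference between groups, rhTM minus saline, for each of the 10 genes by the scanner output (black) and by the authors' table (yellow); points are limma estimates and lines 95% intervals. All intervals by the scanner output cross 0, and Slc40a1 has estimates of 0.11 and -0.12, on opposite sides of 0.

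Of the 10 genes, 0 passed limma's adjusted threshold, 0 had an unadjusted p below 0.05 and 0 had groups without overlap, while 5.52% of all genes tested had such groups and 1.87% such an unadjusted p. The mean was higher in the rhTM group for 7 of the 10 (6 under other scalings), against 50.7% of all genes. The median log2 difference of the 10 was 0.06, against 0.0026 over all genes (0.14 and -0.02 by the table). By the table, 3 of the 10 (Mt1, Blvrb and Fth1) had groups without overlap, beside 21.7% of all genes, and 1 of the 10 (Fth1) had an unadjusted limma value below 0.05, beside 14% of all genes. The share of genes without overlap thus differed between the assignments over all genes as well as among these 10.

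The rhTM mice varied more among themselves than the saline mice. The SD on the log2 scale was larger in the rhTM group for 10 of the 10 genes, compared with 66.1% of all genes. For Slc40a1 (0.264 in saline, 0.274 in rhTM) and Slc11a1 (0.188 and 0.199) the SDs were nearly equal. By the table the count was 10 of the 10, compared with 70.8%. Both assignments keep rhTM replicates 1 and 3 in the rhTM group, so the 2 counts are not independent. The replicates that set this spread were mostly the same. rhTM replicate 1 was the highest of the 6 mice for Mt1, Mt2, Slc39a14, Hmox1, Blvrb and Slc40a1 and the lowest for Slc30a1 and Tfrc. Over all genes that array was the highest or the lowest for 56.4%. Relative to the saline mean, its signal was 1.58-fold for Mt1, 1.56-fold for Mt2 and 2.445-fold for Slc39a14, but 0.667-fold for Slc30a1 and for Tfrc. In rhTM replicate 3 the corresponding ratios were 1.27 (Mt1), 1.41 (Mt2) and 1.485 (Slc39a14).

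In all, 6 pairs of the genes were compared across the 6 mice, which involves no group labels. Mt1 and Mt2 had r = 0.93 (exact permutation p = 0.0306; adjusted over the pairs 0.0917) and rho = 0.66 (exact permutation p = 0.175; adjusted 0.525). Without the 2 mice farthest from the median of Mt1, rhTM replicates 1 and 3, r was -0.000968, so the relation rested on those mice, while without rhTM replicate 1 alone it was 0.87. Mt1 and Slc39a14 had r = 0.95 (exact permutation p = 0.0556, adjusted 0.111) and rho = 0.49 (exact permutation p = 0.356, adjusted 0.533). Without the same mice r was -0.62, so this relation rested on them too, and without rhTM replicate 1 alone r was 0.81. Mt1 and Slc30a1 ran in opposite directions, with r = -0.90 (exact permutation p = 0.0278; adjusted 0.0917) and rho = -0.83 (exact permutation p = 0.0583; adjusted 0.35). Here r was -0.82 without those 2 mice, over 4 points, and -0.67 without rhTM replicate 1 alone. None of the pairs passed 0.05 after adjustment, and Hmox1 with Blvrb (r = 0.75), Hmox1 with Slc40a1 (r = 0.59) and Tfrc with Fth1 (r = -0.17) had exact permutation p from 0.225 to 0.814. Without rhTM replicate 1 alone, r was -0.23, 0.03 and -0.22 for these pairs in that order. The pairs were not compared within slides.

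**Figure D3:**
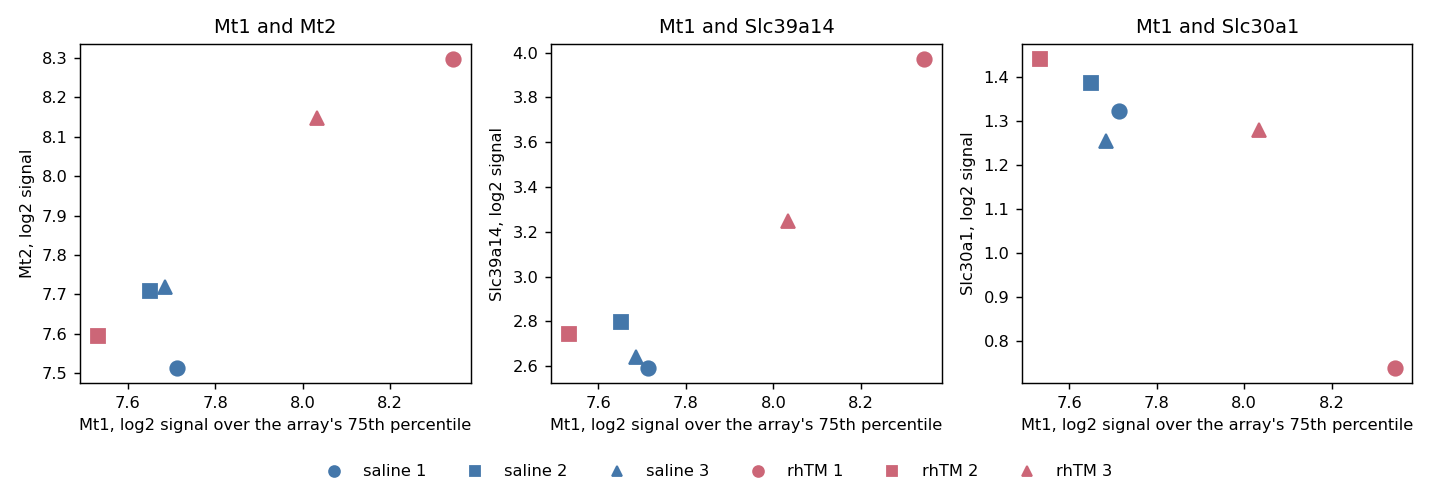
Log2 signal of Mt1 (x axis) against Mt2, Slc39a14 and Slc30a1 (y axes) over 6 mice, with colour for the group and marker for the replicate number; axes do not start at 0. rhTM replicates 1 and 3 lie to the right of the other mice in every panel (r = 0.93, 0.95 and -0.90), and in the last panel rhTM replicate 1 lies lowest on the y axis.

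The genes whose pattern over the 6 arrays was most like each of the 10 were found by Pearson r among all genes, as a description. Nearest to Mt1 were Ica1 (r = 0.998) and Csf3 (r = 0.996), the latter encoding the granulocyte growth factor G-CSF. Csf3 read 0.437, 0.345 and 0.398 in the saline mice and 1.26, 0.324 and 0.721 in the rhTM mice, again high in rhTM replicates 1 and 3. Celsr1 and Abcc9 were nearest to Mt2 (r = 0.992 and 0.991), and Serpinb9, encoding a granzyme B inhibitor, and Padi3 to Slc39a14 (both r = 0.997). For most of the others the nearest were Tmem44 and Adrb1 (Slc30a1), Fam160a2 and 1810062G17Rik (Hmox1), Dmrt2 and 4921504E06Rik (Blvrb), Atp6v1e1 and Stxbp2 (Slc11a1), Creld2 and Heatr5b (Tfrc), and Elk1 and Gfi1 (Fth1). Some of the nearest genes were dim, with signals of 0.034 to 0.059 (Padi3), 0.037 to 0.088 (Dmrt2) and 0.022 to 0.098 (4921504E06Rik). With 6 points such values of r are common, as between 59 (Hmox1) and 407 (Slc30a1) genes had r above 0.95 with one of the 10.

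Other genes of zinc, heme and iron metabolism were listed, 82 in all, of which 75 were measured and 7 were not well above background. Of the 75, 0 passed limma's adjusted threshold and 2 had groups without overlap, beside 5.52% of all genes. Slc30a6, a zinc transporter of the Golgi, read 3.18, 2.95 and 3.06 in the saline mice and 3.25, 3.42 and 3.28 in the rhTM mice (log2 difference 0.12). Slc39a9, a zinc importer, read 0.931, 1.23 and 1.08 against 0.887, 0.922 and 0.928 (-0.23). The mean was higher in the rhTM group for 11 of 20 zinc genes, 16 of 24 heme genes and 16 of 31 iron genes, with medians of 0.0066, 0.04 and 0.0036. By the table these were 8 of 20, 10 of 24 and 16 of 29, with medians of -0.07, -0.02 and 0.03, so the zinc and heme medians changed sign. Groups did not overlap by the table for 17 of 73 measured genes, beside 21.7% of all genes, and neither Slc30a6 nor Slc39a9 was among them. Of the 17, 8 were higher in the rhTM group (Alas1, Cp, Flvcr1, Ftl1, Hp, Lcn2, Slc39a1 and Trf) and 9 were lower (Alad, Flvcr2, Lrp1, Neo1, Pcbp2, Ppox, Slc30a9, Slc39a13 and Steap3), and those outside the naming rule are named here after their values were seen.

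Of the listed genes, those of 4 plasma proteins that carry heme, hemoglobin, iron or copper are described together here, a grouping made after their values were seen, so that their shared direction supports nothing. Hamp and Ltf, also secreted, had lower means in the rhTM group by the scanner output (-0.32 and -0.31). Hpx, the heme-binding hemopexin, read 0.885, 0.922 and 1.11 in the saline mice and 2.40, 0.571 and 2.11 in the rhTM mice (log2 difference 0.56). Hp, the hemoglobin-binding haptoglobin, read 229, 206.4 and 223.5 against 325.8, 226.7 and 261.7 (0.29). Their highest signals were those of rhTM replicates 1 and 3. Trf, the iron carrier transferrin, differed by 0.32 and the copper oxidase Cp by 0.21, with the same 2 mice highest. By the table the differences were 0.98 (Hpx), 0.30 (Hp), 0.43 (Trf) and 0.58 (Cp), and the groups of Hp, Trf and Cp did not overlap, beside 21.7% of all genes, with none past the adjusted threshold. These 4 are also known as liver products. Of 6 hepatocyte markers, Alb, Apoa1, Ttr and Fgb were not well above background. The other 2 summed to 8.40 in saline replicate 1 and 8.445 in rhTM replicate 3, the arrays of slide 2, against 3.06 to 4.40 in the other mice. The part of these markers and of the slide in the values of the 4 genes was not tested.

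The other genes of the lists named by rule had these differences by the scanner output, none with a call. Mtf1 itself differed by 0.03, the heme-sensing repressor Bach1 by 0.01, the oxidative stress factor Nfe2l2 by 0.05, and the partner enzymes Hmox2 and Blvra by 0.03 and 0.06. The zinc importer Slc39a8 differed by 0.02, the ferritin light chain Ftl1 by 0.0047, the ferritin cargo receptor Ncoa4 by -0.04 and the iron importer Slc11a2 by -0.14. The iron regulatory proteins Aco1 and Ireb2 differed by -0.02 and 0.13, the heme exporter Flvcr1 by 0.11, and the heme synthesis enzymes Alas1 and Fech by 0.09 and 0.10. The hemoglobin scavenger receptor Cd163 differed by -0.01. Values farther from 0 were those of the metalloreductase Steap4 (-0.44), the iron hormone Hamp and lactoferrin Ltf, while the siderophore-binding Lcn2 differed by 0.14. By the table, several of these turned in sign, among them Hamp (0.16), Ltf (0.05), Ireb2 (-0.20), Cd163 (0.39), Hmox2 (-0.17) and Slc11a2 (0.03). The differences of Ftl1, Lcn2, Alas1 and Flvcr1 were 0.22, 0.30, 0.20 and 0.20 there, none past the adjusted threshold. Bmp6, the ligand known to induce Hamp in liver, had the largest difference of the iron list, at -0.85, and is named for that after its values were seen. It read 3.02, 4.05 and 2.57 in the saline mice and 0.969, 3.04 and 1.82 in the rhTM mice, with overlapping groups.

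**Figure D4:**
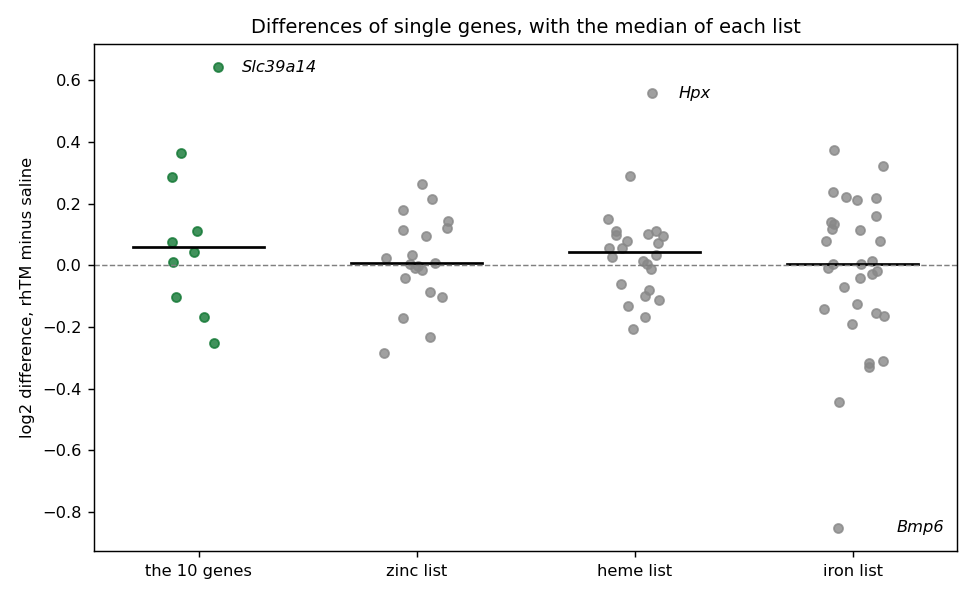
Log2 difference, rhTM minus saline, of the 10 genes and of the measured genes of the zinc, heme and iron lists; each point is a gene and lines are list medians. The medians lie between 0.0036 and 0.06, and Slc39a14 (0.64), Hpx (0.56) and Bmp6 (-0.85) lie farthest out.

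Markers of the cell types of lung were read beside these genes, each list as a sum, which the brightest markers set, and as a mean log2 signal, which weights markers equally. Of 14 macrophage markers, 4 had a higher mean in the rhTM group, with sums of 399.9 to 409.3 in the saline mice and 375.4 to 436.8 in the rhTM mice. Their mean log2 signal was 3.36 to 3.51 in the saline mice and 3.20, 3.49 and 3.27 in rhTM replicates 1 to 3, so rhTM replicates 1 and 3 were below all saline mice. Groups did not overlap for 2 of the 14, the complement chains C1qa and C1qb, which were lower in the rhTM mice, beside 5.52% of all genes. Of the 14, 0 lacked overlap by the table.

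Endothelial and alveolar type 1 markers were also lowest in those 2 rhTM mice by mean log2 signal. Of 9 endothelial markers, 4 had a higher mean, and their mean log2 signal was 4.07 to 4.27 in the saline mice and 3.93, 4.26 and 4.06 in rhTM replicates 1 to 3. Of 5 alveolar type 1 markers, 1 had a higher mean, and their mean log2 signal was 4.62 to 4.87 in the saline mice and 4.56, 4.67 and 4.41 in the rhTM mice. In both lists rhTM replicates 1 and 3, the mice highest in Mt1, Mt2 and Slc39a14, were below every saline mouse by mean log2 signal. By sum this did not hold in either list. Endothelial sums were 366.5 to 402.5 in the saline mice and 347.7, 389.1 and 388.2 in rhTM replicates 1 to 3. Alveolar type 1 sums were 254 to 302.2 against 277.7, 269.3 and 239. Alveolar type 2 markers had 0 of 8 higher means (5 of 8 by the table) and a mean log2 signal of 5.83 to 6.26 against 5.70, 6.03 and 6.07, with sums of 1069 to 1595 and 983.4 to 1407. Of 6 fibroblast markers, 5 had a higher mean, with mean log2 signals of 2.60 to 2.87 against 2.67, 2.77 and 3.22.

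Club and ciliated markers were above all saline mice in the same 2 rhTM mice by mean log2 signal (3.33 to 3.51 against 3.74, 2.89 and 3.81) but not by sum (630.1 to 794 against 747.3, 568.8 and 837.6), with 5 of 7 higher in mean. Of 11 neutrophil markers, 8 had a higher mean, with sums of 928.9 to 1113 against 955.7 to 1219 and mean log2 signals of 4.17 to 4.52 against 4.57, 4.12 and 4.48. Of 8 erythroid markers, 5 had a higher mean, with sums of 1153 to 1459 against 1101 to 1507 and mean log2 signals of 2.39 to 2.75 against 2.79, 2.29 and 2.60. For neutrophil and erythroid markers rhTM replicate 1 was thus the highest of the 6 mice. The sum of 6 platelet markers, of which 2 had a higher mean, was 27.7 in rhTM replicate 1 and 10.5 to 14.9 in the other mice. The sum of 10 T and B cell markers, of which 5 had a higher mean, was 29.1 and 27.1 on the arrays of slide 2 and 11.8 to 12.5 on the others. Their mean log2 signal did not divide by slide (-0.86 and -0.68 on slide 2, -0.90 to -0.71 on slide 1).

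By the table, beside 21.7% of all genes, groups did not overlap for 5 of 7 erythroid, 3 of 11 neutrophil, 2 of 7 club and ciliated and 2 of 6 fibroblast markers, all higher in the rhTM mice. They also did not for 3 of 9 endothelial and 2 of 10 T and B cell markers, all lower, and for 1 of 8 alveolar type 2 and 1 of 5 alveolar type 1 markers, both higher. The part of these cells in the values of the 10 genes was not tested.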

How the data were processed

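RNA from the lungs of 3 mice given saline and 3 given rhTM was measured on 1-colour Agilent arrays. The authors deposited scanner output (Feature Extraction 10.7.3.1 in the header, 9.1 in the submitters' processing notes) whose processed signal is an intensity with background removed and spatial trends corrected on each array, not scaled between arrays, and a table of the same intensity values. Over 99.8% of probes in each column of that table matched 1 array within 0.1%, with saline replicate 1 and rhTM replicate 2 exchanged.

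Control spots were left out and spots of a probe averaged. Of 56605 probes, 398 were dropped because every spot was flagged as an outlier on an array. Log2 signals were scaled by subtracting the array's 75th percentile. Accessions matched 32989 probes to 1 gene of a RefSeq table (GRCm38.p6). Since the probes were designed on a different build, no probe positions are given, and the promoter windows have the coordinates of the RefSeq table. Probes well above background on all 3 arrays of a group were kept, and the brightest stood for its gene.

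Groups were compared with limma 3.58.1 in R 4.3.3 (Benjamini-Hochberg over all genes, threshold 0.05). Single values were compared by exact two-sided permutation (scipy 1.17.1, Python 3.11.15). The fit was tested on simulated data. The 10 genes and the lists were chosen with earlier results of these data known. Named genes were the 10, fixed genes of the lists, up to 5 per direction of listed genes without overlap, and the 2 nearest genes to each of the 10. The nearest genes to Slc40a1 are not reported here. Alternatives changed the background correction, scaling, filter, blocks, probe summary, test, assignment and arrays used. The number of arrays limits precision.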

Additional observations from a re-analysis of the deposited data

How the results depend on the processing

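Over 24 alternatives, 0 of the 10 genes passed the adjusted threshold by limma, and the lowest adjusted p was 0.05545 (Slc30a1, authors' table with slide block). In 5 of them the 10 estimates were identical to those reported. With the mean of a gene's probes, all but those of Mt1 and Tfrc were identical too. A change of sign was thus open to fewer than 190 values, and 22 reversed. Mt1, Mt2, Slc39a14 and Tfrc kept theirs throughout, with ranges of 0.10 to 0.72, 0.16 to 0.62, 0.19 to 1.24 and -0.57 to -0.06. Fth1 reversed to -0.016 with normexp, -0.032 with quantile normalization and -0.011 with the percentile of probes above background. Slc40a1 reversed to -0.12 by the table and -0.0055 without both exchanged arrays, and Slc11a1 to 0.088 by the table with slide block. The cause was not tested.

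Leaving out 1 array of the scanner output in turn gave ranges of -0.31 to 0.038 (Slc30a1), -0.048 to 0.17 (Hmox1), -0.076 to 0.15 (Blvrb), -0.023 to 0.26 (Slc40a1), -0.21 to -0.012 (Slc11a1) and -0.11 to 0.15 (Fth1). The reversals of Slc30a1, Hmox1 and Blvrb came without rhTM replicate 1, when 4 of the 10 genes were higher in mean, against up to 7 otherwise. Groups without overlap then numbered 0 to 3 of the 10, with 3 without rhTM replicate 2, and 6 to 20 of the listed genes, beside 8.96% to 24.5% of all genes. Over all genes 0 to 3 passed.

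Groups without overlap numbered 1 of the 10 with quantile normalization or the percentile of probes above background, 3 by the table and 5 without both exchanged arrays. Of the listed genes they numbered 17 by the table and 32 without both exchanged arrays. Over all genes the shares were 5.24%, 5.6%, 21.7% and 41.5% in that order. Over all genes, 432 passed by the table with slide block and 1 without both exchanged arrays.

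When arrays were left out of the table, Slc40a1 was -0.12, -0.21 and -0.031 without saline replicates 1, 2 and 3 and -0.31, -0.0077 and -0.037 without rhTM replicates 1, 2 and 3. In the same order, groups without overlap numbered 3, 3, 4, 5, 5 and 4 of the 10 and 23, 20, 28, 41, 26 and 20 of the listed genes, beside 27.5%, 28%, 33.4%, 46.1%, 34.8% and 26.8% of all genes. Without saline replicate 1, 1 gene passed. Without rhTM replicate 1, 589 genes passed, 2 of them listed, and Hmox1 was -0.0023.

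The replicate numbers did not pair the mice (correlations of same-numbered deviations -0.30, 0.44 and -0.45). A replicate block leaves the estimates as they are in this balanced design (Slc39a14 0.64), and 0 genes passed, with 376 at an unadjusted p under 0.05. At the fold and P thresholds of the methods (2 and 0.01), the methods' t-test called 1 gene, 0 of the 10, and 0 after Benjamini-Hochberg adjustment.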
